A study of Mus musculus with 8 samples.

Results

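The 8 genes of glycogen metabolism and early glycolysis Gpi1, Phka1, Ppp1r3a, Ppp1r3b, Ppp1r3c, Ppp1r3d, Gys1 and Pygm were followed through maps of N6-methyladenosine (m6A), a methyl mark on RNA, in mouse gastrocnemius, a calf muscle. Of the 8, 6 were among the 5987 gene names with a peak in any list. The genes were chosen by name with earlier results of these data known, among them the calls of some of them in 1 group only, so the calls below are descriptions and are not tested. The 10-week-old male C57BL/6 mice gave denervated muscle, taken 14 days after denervation, and innervated muscle of the opposite leg as the control. Each group had 2 replicates, and each replicate gave a library immunoprecipitated with an m6A antibody and an input library. The labels do not say whether replicates came from separate animals, nor which leg belongs to which animal, and the control muscles came from legs opposite denervated ones rather than from unoperated mice. All 4 lists of peaks, 1 per immunoprecipitated library against its input, were used.

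Muscle stores glucose as glycogen. Glycogen synthase, encoded in muscle by Gys1, builds the polymer, and glycogen phosphorylase, encoded by Pygm, breaks it down after phosphorylase kinase has activated it. Protein phosphatase 1 reverses that signal: it switches the synthase on and the phosphorylase off, and it is brought to glycogen by targeting subunits of the Ppp1r3 family. Glucose 6-phosphate from glycogen or from blood glucose then enters glycolysis through glucose-6-phosphate isomerase, encoded by Gpi1.

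Peaks of 3 members were called in both denervated lists and neither innervated list: Gpi1, Phka1, the muscle alpha subunit of phosphorylase kinase, and Ppp1r3b, a targeting subunit best known from liver. The reverse held for 1 member, Ppp1r3d, a targeting subunit found in many tissues. Ppp1r3a, the glycogen-targeting subunit typical of striated muscle, and Ppp1r3c, also called protein targeting to glycogen, had peaks in all 4 lists. Gys1 and Pygm had no peak in any list. Over all 5987 gene names, 3.42% were denervated only, 3.14% innervated only and 48.8% called in all 4 lists; because the members were chosen with such calls known, nothing is read from their shares. Each innervated list held 3 of the 8 members, the same genes in both, and each denervated list held 5, again the same genes. Of the 5987 gene names, innervated replicates 1 and 2 held 4153 and 4647, and denervated replicates 1 and 2 held 4606 and 4234. The choice of members fixes their numbers in part. The member peaks numbered 6 and 7 in innervated replicates 1 and 2, and 9 in each denervated replicate.

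A peak needs reads as well as methylation, and neither read counts nor transcript levels were analysed here, so a difference in calls cannot be told apart from a difference in transcript abundance. In a whole muscle, likewise, fewer cells of a type and less RNA per cell cannot be told apart. The lists held 9327 to 10300 peaks and covered 3010748 to 3545697 bases, with the longest list in innervated replicate 2. Library depth is unknown, and a list without a peak is no evidence of an unmethylated transcript. Of 16 genes that define muscle fibres, among them Acta1, Ckm, Ttn and Myh4, 0 had a peak in any list. These markers alone therefore do not show the labelled tissue. Other genes typical of muscle, such as Ppp1r3a and Prkag3, were called in all 4 lists. Of the marker genes of other cell types, Ngfr, a receptor of Schwann cells that are no longer in contact with axons, was the single one called in the denervated lists alone, 1 of 7 Schwann cell markers, while Sox10 was called in innervated replicate 2 alone and Mbp, Pmp22 and S100b had no peak; its part in the calls of the members was not tested.

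**Figure D1:**
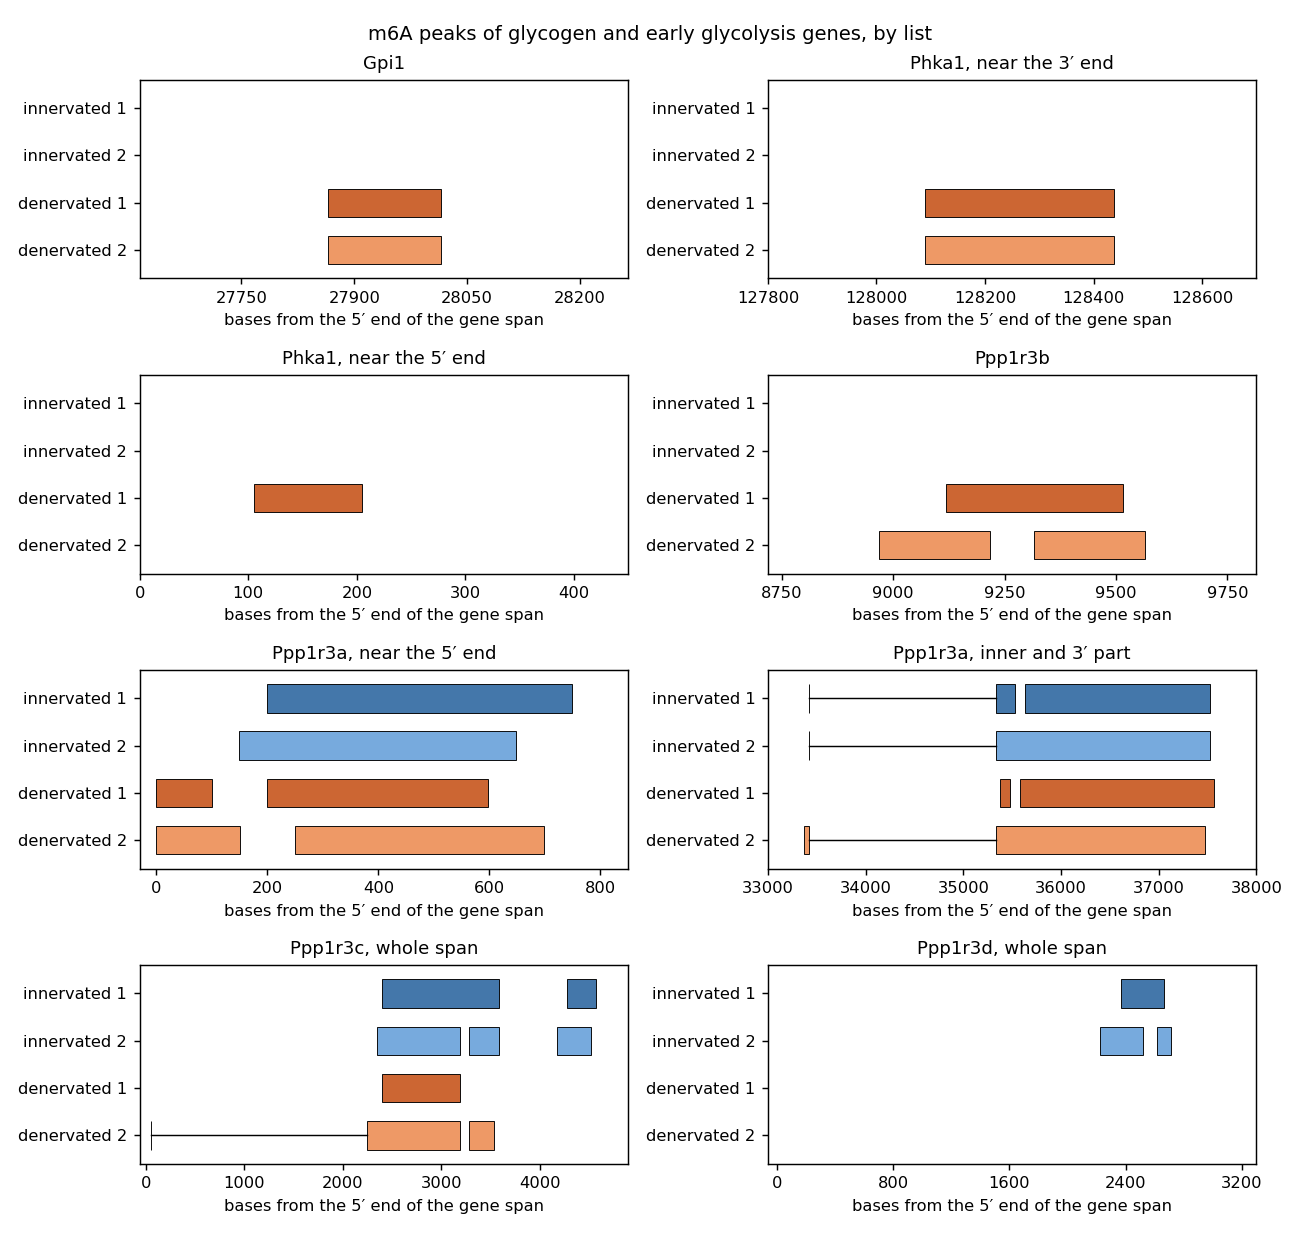
Positions of the m6A peaks of the 6 members that had any, by list. Each panel shows bases from the 5′ end of the gene span on the horizontal axis and the 4 lists on the vertical axis; boxes are peak blocks and lines join blocks of the same peak across a gap. The Gpi1 and Phka1 3′ peaks have the same ends in both denervated lists, and in Ppp1r3a the boxes at position 0 are found in the denervated lists alone.

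Among the members, the targeting subunit Ppp1r3a had the most bases covered by peaks. Its gene lies on the minus strand of chromosome 6 and spans 14713822 to 14755274 of mm10. Peaks covered 2642 bases in innervated replicate 1, 2690 in innervated replicate 2, 2593 in denervated replicate 1 and 2790 in denervated replicate 2. The groups overlapped, with means of 2666 ± 33.9 bases (SD, n = 2) in innervated and 2692 ± 139 bases (SD, n = 2) in denervated muscle. The difference of 25.5 bases turned to −930.5 bases when peaks were measured from start to end, and to −73 bases without denervated replicate 2. Of the 3039 bases covered in any list, 75.5% were covered in all 4, against 33.1% over all covered bases of the series. The latter share includes genes called in fewer lists, so part of the gap follows from the calls of Ppp1r3a in all 4. For Ppp1r3c, also called in all 4 lists, the share was 45.7%.

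The coverage of Ppp1r3a fell into 2 regions, which are sets of peaks linked by at least 1 shared base on a strand. The inner region ran from 14717705 to 14721907, and 1843 bases of it, from 14717805 to 14719647, lay in peaks of all 4 lists without a break. Its peaks in both innervated lists and in denervated replicate 2 continued across a gap from 14719942 to 14721853, 1912 bases with the same ends in each of the 3 lists, written as 2 blocks of the same peak. Beyond the gap these peaks held 4 bases in each innervated list and 54 bases in denervated replicate 2. Denervated replicate 1 had no block there.

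The second region of Ppp1r3a, from 14754527 to 14755274, reached the first base of the gene only in the denervated lists. The innervated peaks ended 199 bases (replicate 1) and 149 bases (replicate 2) short of the 5′ end of the span. Both denervated lists held an additional peak that ended exactly at that end, 101 bases wide in replicate 1 and 150 bases wide in replicate 2, next to a peak farther in. Of these, the outer 101 bases, from 14755174 to 14755274, were covered in both denervated lists and in neither innervated list. The peaks farther in started at 14754527, 14754577, 14754627 and 14754677 in the 4 lists, in steps of 50 bases. Positions are given to the base but may move in such steps. How this bears on the shared end was not tested. The region as a whole counts as called in all 4 lists, since its inner 349 bases are shared and a single base, 14755125, joins the outer peak of denervated replicate 2 to the peak of innervated replicate 2. With reciprocal overlap of at least 50% in place of 1 base, the outer peaks became a denervated-only region from 14755125 to 14755274.

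The first 50 transcribed bases of Ppp1r3a, from RefSeq on GRCm38.p6 (the assembly of mm10), chr6:14755225-14755274 on the minus strand, are shown because they lie wholly within those outer peaks. Capitals mark matches to 4-letter forms of the m6A consensus, searched as GGAC or GAAC, and as AGAC or AAAC.
Ppp1r3a, bases 1 to 50 of the transcript: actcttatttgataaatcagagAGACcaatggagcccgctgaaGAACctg

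The window held 2 matches, AGAC from base 23 to 26 and GAAC from base 44 to 47, neither overlapping the other, and 0 on the opposite strand. The first ATG began at base 29, and the first base was an A. Of 32851 such windows in the RefSeq table, 50.8% held at least 1 match on the transcribed strand, 15.9% held at least 2, and 77.8% held at least 1 on either strand; a match is a description and marks no site. Of the other members, 6 had a window in the table, and 0 of these were covered by a peak in any list. A peak of Phka1 in denervated replicate 1 ended at 102644196, directly beside its window, which starts at 102644197. The outer block of Ppp1r3c in denervated replicate 2 likewise ended at 36736554, beside a window that starts at 36736555. Ppp1r3b had no entry. Among 4544 genes with a peak and an entry, the start window was covered in both denervated lists alone in 0.462% (21 genes, Ppp1r3a among them), in both innervated lists alone in 0.242% (11 genes) and in all 4 lists in 1.21%. Coverage of start windows itself differed between lists: 144 and 168 genes in innervated replicates 1 and 2, 145 in denervated replicate 1 and 260 in denervated replicate 2. The part of the larger number in denervated replicate 2 in the Ppp1r3a result was not tested.

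Ppp1r3c, on chromosome 19 from 36731731 to 36736604 (minus strand), was called in all 4 lists but was covered over fewer bases in the denervated lists. Peaks covered 1488 and 1489 bases in innervated replicates 1 and 2, and 794 and 1191 bases in denervated replicates 1 and 2. Both denervated values lay below both innervated values. The means were 1488.5 ± 0.707 bases and 992.5 ± 281 bases (SD, n = 2 each), a difference of −496 bases, which exceeds the spread between replicates but rests on 2 lists per group and a gene chosen with its calls known. Measured from start to end with gaps included, the values were 1488, 1489, 794 and 3389 bases in the same order, and the difference turned to 603 bases because of the gap in a peak of denervated replicate 2.

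The difference in Ppp1r3c lay mainly toward the 3′ end of the gene. A region from 36732028 to 36732425, starting 297 bases from the 3′ end of the span, was called in both innervated lists, over 298 and 348 bases, and in neither denervated list. The innervated peaks there ranked far apart within their lists, at percentile 1.64 in replicate 1 and 72.7 in replicate 2, where 100 is the smallest score. The main region, from 36733019 to 36736554, held a core of 794 bases, from 36733415 to 36734208, that all 4 lists covered. The 98 bases beside the core on its 3′ side, from 36733317 to 36733414, were covered in innervated replicate 1 alone. Beyond these, 249 bases from 36733068 to 36733316 were covered in both innervated lists and in denervated replicate 2 but not in denervated replicate 1. The last 49 bases of the region, from 36733019 to 36733067, were covered in both innervated lists and in neither denervated list. In denervated replicate 2, 1 peak ran 940 bases and then, across a gap of 2198 bases, another 2 bases, from 36736553 to 36736554, which stop 50 bases short of the 5′ end of the span.

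Ppp1r3d, on chromosome 2 from 178411206 to 178414463 (minus strand), was the single innervated-only member. Its region ran from 178411749 to 178412242, starting 543 bases from the 3′ end. Peaks covered 297 bases in innervated replicate 1 and 397 bases in innervated replicate 2, in 1 and 2 peaks, and 0 bases in both denervated lists. Of the 494 bases covered in either innervated list, 200 (40.5%) were covered in both. The peaks stood at percentiles 91.3 and 89.1 of their lists, with 100 at the smallest score.

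Ppp1r3b, on chromosome 8 from 35375694 to 35388139 (plus strand), showed the opposite calls. Its region ran from 35384663 to 35385259, 8969 bases from the 5′ end and 2880 bases from the 3′ end of the span. Denervated replicate 1 held a single peak of 398 bases, and denervated replicate 2 held 2 peaks of 249 bases each, on either side of a gap within the peak of replicate 1. Peaks in both lists covered 299 of the 597 bases. The best peak stood at percentile 60.4 in replicate 1 and 47.5 in replicate 2, near the middle of both lists. With 100 at the largest score, its mean percentile was 46.0 and that of Ppp1r3d 9.80, so which of them ranks higher depends on the reading of the score.

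**Figure D2:**
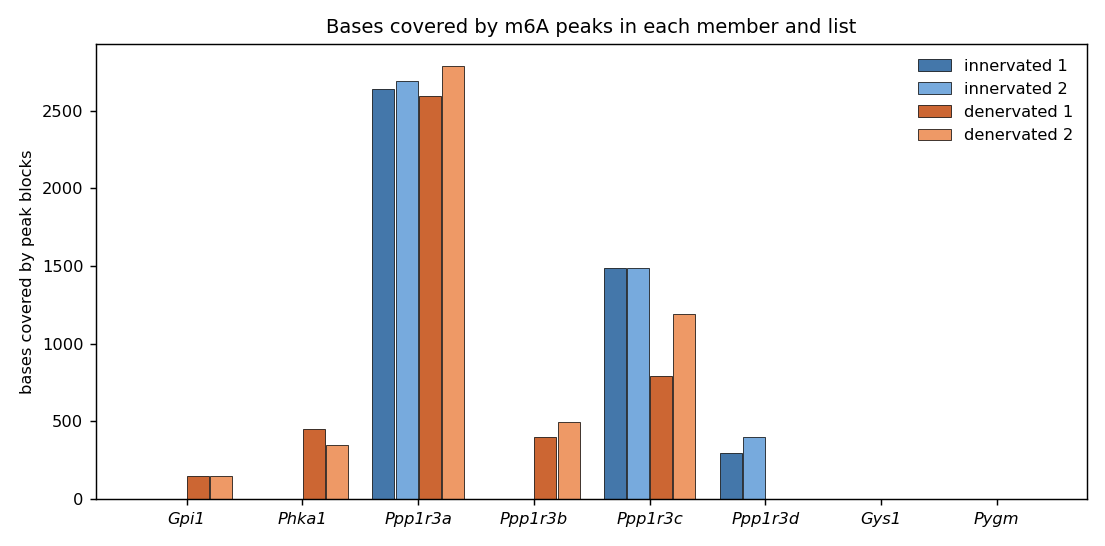
Bases covered by peak blocks (vertical axis) in each of the 8 members, with 1 bar per list. Ppp1r3a is covered to a similar extent in all lists (2593 to 2790 bases), Ppp1r3c is lower in both denervated lists, 4 members have bars in 1 group only, and Gys1 and Pygm have none.

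The remaining group-specific members act in glycogen breakdown and at the entry to glycolysis. Phka1, on chromosome X from 102513975 to 102644301 (minus strand), had a denervated-only region from 102515864 to 102516212, starting 1889 bases from the 3′ end of the span. It was 349 bases wide with the same start and end in both denervated lists, at percentiles 68.9 and 70.5. A second peak of 100 bases, from 102644097 to 102644196, was called in denervated replicate 1 alone, at percentile 3.23, 105 bases from the 5′ end of the span. Both innervated lists had 0 peaks in Phka1.

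Gpi1, on chromosome 7 from 34201327 to 34230336 (minus strand), had a single region of 150 bases from 34202322 to 34202471, starting 995 bases from the 3′ end. It too had the same start and end in both denervated lists. Where both denervated lists held exactly 1 peak in a region, 14.1% of 4292 regions shared both ends; between the innervated lists 16.4% of 4520 did. The Gpi1 peaks had large scores, 0.0029 and 0.0063, and stood at percentiles 9.79 and 4.25, the lowest of the members' best peaks in any list when small scores are read as strong; with 100 at the largest score their mean was 93.0.

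**Figure D3:**
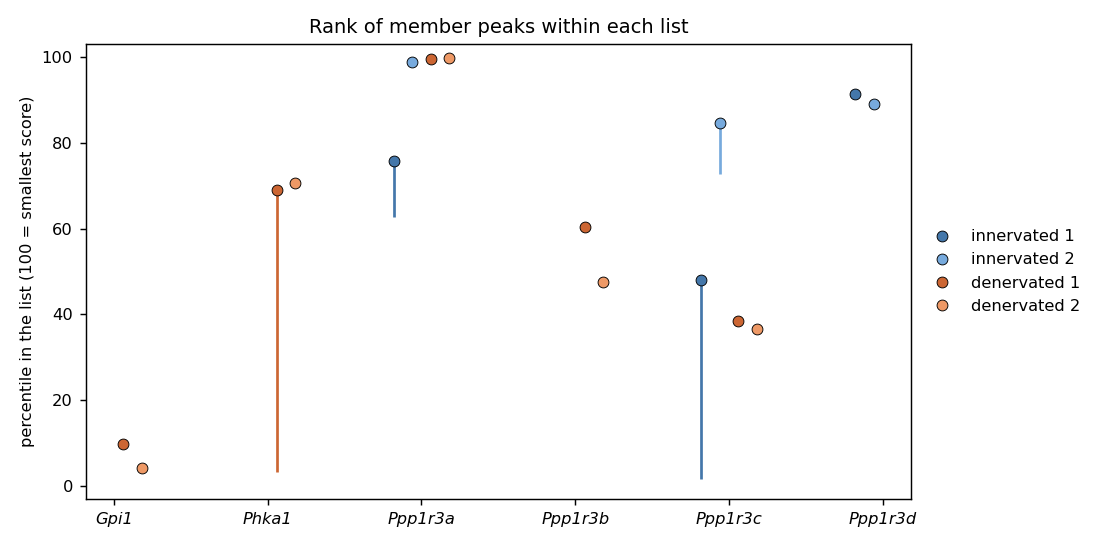
Percentile of the members' peaks within each list (vertical axis, 100 at the smallest score), by member. Points are the peak with the smallest score and lines reach down to the largest score of the same gene and list; Gpi1 stands lowest, below 10 in both denervated lists, and Ppp1r3a highest, above 98 in 3 of the 4 lists.

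Scores are the authors' values and were used as ranks within a list. Their meaning is not given in the sources used here; small scores were read as strong because they run from 0 to at most 0.023, as p-values might. Ppp1r3a scored 4.9e-06 at best in innervated replicate 1, 3.2e-12 in innervated replicate 2, 1e-14 in denervated replicate 1 and 0 in denervated replicate 2. Its percentiles were 75.8, 98.8, 99.6 and 99.7 in that order, so both innervated values lay below both denervated values, with innervated replicate 1 standing apart. Ranks in lists of different lengths show no change in methylation. For Ppp1r3c the best percentiles were 48.0, 84.6, 38.4 and 36.6 in the same order, and the denervated values lay below the innervated ones. That order depends on reading small scores as strong: with 100 at the largest score, the best percentiles of Ppp1r3c were 98.4, 27.3, 61.6 and 63.4, and the groups overlapped. The order of the Ppp1r3a values turned under that reading. Peaks of the same gene often had the same score: all 4 Ppp1r3a peaks of denervated replicate 1 did, as did some peaks in 80.7% to 89.3% of genes with at least 2 peaks in a list. Where scores are tied, the rank does not tell the peaks of a gene apart. Other peaks of the same gene and list differed. That held for Phka1 in denervated replicate 1, Ppp1r3a in innervated replicate 1 and Ppp1r3c in both innervated lists.

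Together the members held 9 regions: 3 denervated only, 2 innervated only, 3 called in all 4 lists and 1 called in a single list. Over all 13116 regions, 3.67% were denervated only, 4.2% innervated only and 34.6% called in all 4 lists. By bases, 13.9% of the 6465 bases covered in the members were denervated only and 7.69% innervated only, against 4.11% and 4.22% of all covered bases. The choice of members fixes these shares in part. None of the 9 regions overlapped the span of another gene in the RefSeq table, and 0 peaks with another gene's name lay within the 8 spans.

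The wider pathway was counted from lists of textbook genes, 74 in all, of which 66 were not members. Of those 66, 0 were denervated only and 0 innervated only, 12 were called in all 4 lists, 9 in other combinations and 45 had no peak. Over all 5987 gene names with a peak, 3.42% were denervated only, 3.14% innervated only and 48.8% called in all 4 lists. At such shares, 0 of the 21 genes with a peak says nothing about these genes. The group-specific calls in the pathway were those of the members, which were picked for them in part.

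**Figure D4:**
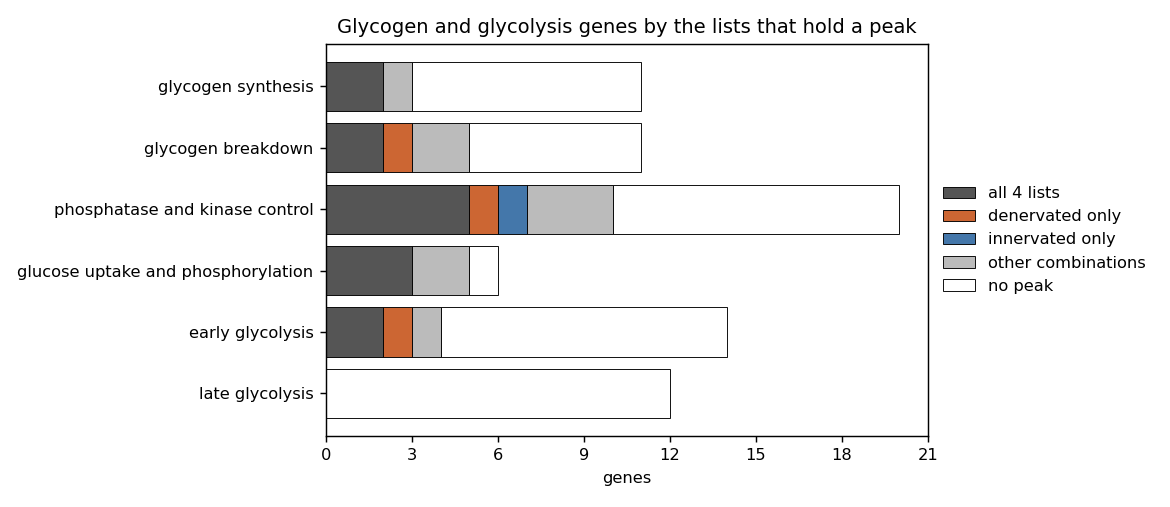
Number of genes (horizontal axis) in 6 lists of glycogen and glycolysis genes, members included, by the peak lists that held a peak. All 12 late glycolysis genes are without a peak, and the control list holds the most genes called in all 4 lists, 5 of 20.

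Of the 20 genes of phosphatase and kinase control, 5 were called in all 4 lists: Ppp1r3a, Ppp1r3c, Ppp1r3e, another targeting subunit, Prkab1, a beta subunit of the AMP-activated kinase, and Prkag3, its gamma subunit of skeletal muscle. Ppp1r3e carried a region on chromosome 14 from 54875646 to 54876474. Ppp1r3f was called in both innervated lists and denervated replicate 2 but not in denervated replicate 1, and Ppp1r3g had no peak. The catalytic subunits Ppp1ca, Ppp1cb and Ppp1cc, which the targeting subunits bring to glycogen, had no peak. Gsk3b, a kinase that inhibits glycogen synthase, had 4 peaks in denervated replicate 1 and none in the other lists. Prkab2, the other beta subunit, was called in denervated replicate 2 alone.

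In glycogen breakdown, Phkg2, a catalytic subunit of phosphorylase kinase, and Stbd1, a glycogen-binding protein, were called in all 4 lists. Stbd1 held 2 separate regions, 1 in innervated replicate 1 and the other in the remaining 3 lists, so no region of it was shared by all. Phkg1, the catalytic subunit of muscle, was missing in innervated replicate 1 alone, and Gaa, the lysosomal glucosidase, in denervated replicate 1 alone. The subunit genes Phka2 and Phkb had no peak. In glycogen synthesis, Epm2a (laforin, a glycogen phosphatase) and a phosphoglucomutase were called in all 4 lists. The latter is listed as Pgm2, but its region on chromosome 4 from 99986698 to 99986947 lies in the span that the RefSeq table calls Pgm1. Nhlrc1 (malin, the ubiquitin ligase that partners laforin) was missing in denervated replicate 1 alone. Gene names missing in denervated replicate 1 alone made up 3.46% of all 5987, and 3 of the 27 pathway genes with a peak had that pattern, Nhlrc1, Gaa and Ppp1r3f.

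Of 6 genes of glucose uptake and phosphorylation, the transporter gene Slc2a1 and the hexokinase genes Hk1 and Hk2 were called in all 4 lists. Hk2, the hexokinase of muscle, carried 5 peaks in every list, in 5 regions that all 4 lists shared. Slc2a4, the insulin-responsive transporter, was called in denervated replicate 2 alone, and Hk3 had no peak. Of 14 early glycolysis genes, Pfkfb4, which sets the level of fructose 2,6-bisphosphate, and Tigar, which degrades it, were called in all 4 lists. Gpi1 was denervated only, Pfkfb2 was called in innervated replicate 2 alone, and the other 10, including the phosphofructokinase gene Pfkm and the aldolase gene Aldoa, had no peak. Of 12 late glycolysis genes, 0 had a peak in any list, the abundant muscle transcripts Gapdh, Eno3 and Pkm among them.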

How the data were processed

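The deposited values were 4 peak lists on mm10, 1 for each immunoprecipitated library called against its own input and not pooled, per the file names. Each peak has a position, strand, blocks, gene name and a column named score per the file headers. Its scale is unknown, and the peak caller is not given in the sources used here. Of the tools, STAR 2.4.2a and ChIPseeker stand in the submitters' processing notes, beside the build. Positions are printed 1-based. All peaks whose gene name is a member were taken. Peaks that shared at least 1 block base on a strand were linked into regions. Denervated only means both denervated lists and neither innervated list, and innervated only the reverse. Percentiles use mean ranks for ties. Spans and sequences came from RefSeq tables of GRCm38.p6, in which 5725 of the 5987 gene names, and all 8 members, are symbols; no exon or UTR annotation and no genome sequence was used here. Strand in the assignment by gene span came from the promoter table, and genes without an entry were matched on either strand. No test was run, since members and gene lists were chosen with earlier results of these data known. Named genes were the 8 members, the pathway genes with a peak, examples of those without, and markers of the tissue check. Some genes of these lists are not reported here. The code, in Python 3.11.15 with matplotlib 3.10.9 for the plots, was tested on simulated peaks with known patterns.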

Additional observations from a re-analysis of the deposited data

How the results depend on the processing

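Assignment by gene span left each member's call as it was, and so did equal numbers of peaks per list and leaving out any 1 library. The definition loosens without a library. A member that is group-specific, called in all lists or without a peak then keeps its call by construction. That covers every member, so leaving out a library could not change these calls. Keeping from each list the 50% of peaks with the smallest scores left 1 denervated-only member (Phka1), 1 innervated-only member (Ppp1r3d) and 1 in all 4 lists (Ppp1r3a); Gpi1 then had no peak. Pathway genes were then 1, 2 and 4, member regions 1 denervated only and 1 innervated only, and 869 genes of the series were called in all 4 lists. Keeping the 50% with the largest scores left 1 denervated-only member (Gpi1), 0 innervated-only members and 0 in all 4 lists. Pathway genes were then 1 denervated only and 2 in all 4 lists, member regions 1, 0 and 0, and 688 genes were called in all 4 lists. Genes whose peaks stand on 1 side of the limit lose their call on the other by construction.

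Reciprocal overlap of at least 50% split the 9 member regions into 14. Measured from start to end with gaps included, the denervated minus innervated difference was −930.5 bases for Ppp1r3a and 603 bases for Ppp1r3c, both opposite in sign to the values by blocks (25.5 and −496), because the gaps of spliced peaks are then counted. With percentile 100 at the largest score, the mean percentile was 93.0 for Gpi1, 63.1 for Phka1, 9.78 for Ppp1r3a, 46.0 for Ppp1r3b, 62.7 for Ppp1r3c and 9.80 for Ppp1r3d, against 7.02, 69.7, 93.5, 54.0, 51.9 and 90.2; the median over its peaks put Phka1 at 53.3.

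Without 1 library at a time, denervated-only pathway genes numbered 3 to 5 and innervated-only ones 1 to 4, denervated-only genes of the series 353 to 575 and innervated-only genes 374 to 548, and denervated-only member regions 3 to 5. The Ppp1r3a difference by blocks ranged from −73 bases, without denervated replicate 2, to 124 bases, without denervated replicate 1, so 1 library sets its sign. That of Ppp1r3c ranged from −694.5 to −297.5 bases, without denervated replicates 2 and 1. No paired analysis was possible because the results come from no test and the labels do not say that equal replicate numbers mark the same animal. Depth is unknown and limits what a missing peak can show.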
